A study of Mus musculus with 10 samples.

Results

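The 10 genes described here are the transcription factor Nkx2-2, the gene that the study removed, and 9 partners. The partners are factors of ventral, intermediate or dorsal progenitors of the neural tube: Nkx2-9, Nkx6-1, Nkx6-2, Pax6, Pax7, Dbx1, Dbx2, Irx3 and Olig3. They were taken as every probe set whose gene symbol names one of them, which gave 15 of 45101 probe sets on the array. The platform's annotation held 18193 genes with a probe set of their own. Of the 10 genes, 8 were read by 1 probe set each, Pax7 by 2 and Pax6 by 5, and no member probe set named a further gene. All but Olig3, a basic helix-loop-helix factor, encode homeodomain proteins.

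The wild-type animals carry the replicate numbers 14, 15, 16, 18 and 21 (n = 5) and the Nkx2.2-/- animals the numbers 11, 12, 22, 29 and 43 (n = 5), and every mouse has its own array. All 10 mice were of the C57BL/6 strain and aged 1.5 to 2 days, and the series' design text calls the wild-type mice littermates. The pons, the medulla and the upper spinal cord were dissected from 20 µm sections. The sources used here do not say how the Nkx2.2 allele was made; the genotype is that of the whole animal, and the labels name no treatment in either group.

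In the embryonic neural tube, Sonic hedgehog from the notochord and floor plate divides ventral progenitors into bands. It turns on Nkx2-2, Nkx2-9, Nkx6-1 and Nkx6-2 and turns off Pax6, Pax7, Dbx1, Dbx2 and Irx3, and pairs of these factors repress each other at the borders between bands. Nkx2-2 and Pax6 are such a pair: Nkx2-2 marks the band nearest the floor plate, which gives visceral motor neurons, V3 interneurons and, in the hindbrain, serotonergic neurons. Later Nkx2-2 acts again in oligodendrocyte precursors. The tissue here was taken after birth, when the making of neurons in these bands has largely ended.

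Nkx2-2 belongs to the NK-2 class, whose members recognise the core TNAAGTG. The promoter windows of RefSeq (build GRCm38.p6), which run from 250 bases before to 50 bases after a gene's start, were searched for that core on both strands to see which of the 10 genes carry it close to their start. All 10 genes had a window, and Pax6 had 2. The core was found in 1 of these 11 windows, that of Nkx2-2 itself. It is shown with 10 bases to each side because it is the only match among these genes. It lies at chr2:147186583-147186609, is written in the direction of the gene, which is on the minus strand, and has the core in capitals, read on the opposite strand:
Nkx2-2: tgtcttcatcCACTTGActcccaagac
The match ends 190 bases before the annotated start of the gene. Of 32851 windows of 300 bases for all genes, 11.5% hold the same core, so 1 in 11 is near the share over all genes. The hedgehog response sequence GACCACCCA, bound by GLI factors, was in 0 of the 11 windows on either strand and in 0.253% of all windows. A match describes the letters in these windows and does not show binding.

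Of the 10 genes, Nkx2-2 fell and the other 9 did not pass the test in either direction. Values are log2 expression values, in which 1 unit is a doubling, and changes are Nkx2.2-/- minus wild type. Over all 45037 non-control probe sets, 23 were lower in Nkx2.2-/- mice at an adjusted p under 0.05 and 0 were higher, which is 0.0511% of those tested (limma, Benjamini-Hochberg adjusted). Among the 15 member probe sets this threshold was passed by 1, that of Nkx2-2. None of the other 14 passed, and 0 of the 14 had an unadjusted limma p under 0.05, against 3.43% of all probe sets. The lowest unadjusted limma p among them was 0.137.

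The probe set of Nkx2-2 (1421112_at) read 6.88, 6.47, 6.49, 6.51 and 6.42 in the wild-type mice 14, 15, 16, 18 and 21. In Nkx2.2-/- mice 11, 12, 22, 29 and 43 it lay at 4.73, 4.34, 4.24, 4.58 and 4.64. The groups did not overlap, and every Nkx2.2-/- mouse was below every wild-type mouse. Of all probe sets, 0.442% had Nkx2.2-/- values below every wild-type value, and 0.757% had groups apart in either direction. The log2 change of Nkx2-2 was -2.05 (95% interval -2.29 to -1.80), a 4.13-fold fall (limma, adjusted p = 7.23e-05). The two-sided exact permutation test over the mice returned p = 0.00794, its minimum for groups of 5. With Nkx2.2 absent the mean was 4.51, above 22.2% of probe sets, where the wild-type mean of 6.55 was above 79.5%, so the remaining signal is among the dimmer values, and the deposited values carry no detection call. The sources do not place the probe set relative to the altered sequence. It therefore shows that the labelled groups differ, not what transcript remains. In tissue of this kind, fewer cells of a type and less RNA per cell cannot be told apart.

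**Figure D1:**
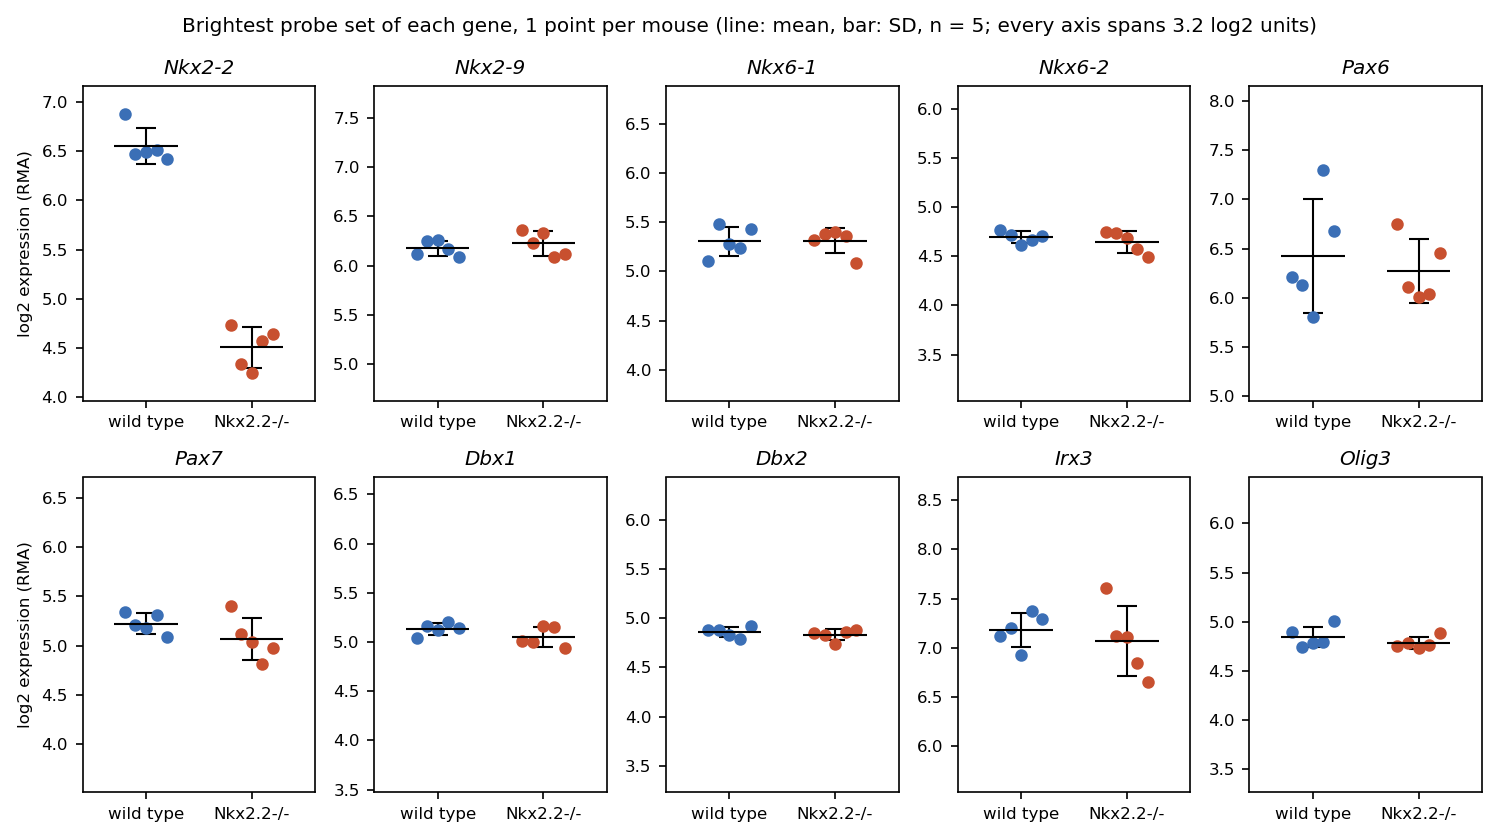
Log2 expression of the brightest probe set of each of the 10 genes, 1 point per mouse, for 5 wild-type (blue) and 5 Nkx2.2-/- (red) mice, with the group mean as a line and the SD as a bar. All panels span the same number of log2 units. The groups separate for Nkx2-2 (6.42 to 6.88 against 4.24 to 4.73) and overlap for the other 9, and the points spread widest for Pax6 and Irx3.

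None of the other genes that hedgehog turns on passed the test. Nkx2-9, the nearest relative of Nkx2-2 among these genes, is expressed beside it next to the floor plate in the embryo. Its values were 6.12, 6.25, 6.26, 6.17 and 6.09 in wild-type mice 14, 15, 16, 18 and 21. In Nkx2.2-/- mice 11, 12, 22, 29 and 43 it lay at 6.36, 6.23, 6.33, 6.09 and 6.11. The groups overlapped, with 2 of 5 Nkx2.2-/- mice below the wild-type mean and mouse 11 the highest of all mice. The log2 change came to 0.05 (95% interval -0.09 to 0.19; limma adjusted p = 0.9997), which leaves room for a rise of up to 1.14-fold or a fall of up to 1.06-fold in this signal.

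Nkx6-1, which specifies motor neuron and V2 progenitors over a wider ventral region, ran from 5.10 to 5.48 in wild-type and from 5.09 to 5.41 in Nkx2.2-/- mice. Its change was 0.01 (95% interval -0.17 to 0.19; limma adjusted p = 0.9997). Nkx2.2-/- mouse 43 was the lowest of all mice at 5.09, and wild-type mouse 14 was lowest of its group at 5.10. The same 2 mice had a weak 5 prime Gapdh control signal: the 3 prime probe set exceeded it by 3.78 in mouse 43 and 2.13 in mouse 14, where the remaining 8 mice had differences of -0.32 to 0.13. Over all 10 mice the deviations of Nkx6-1 and of this Gapdh difference had a Pearson's r of -0.815 (exact p = 0.0287, adjusted 0.205 over the 50 relations described further on) and a Spearman's rho of -0.394 (exact p = 0.193, adjusted 0.563), and r was 0.131 without those 2 mice, on which the relation rests.

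Nkx6-2 is both a ventral progenitor factor and a factor of myelinating oligodendrocytes. It ran from 4.61 to 4.77 in wild-type mice and from 4.49 to 4.74 in Nkx2.2-/- mice. The groups overlapped, and the log2 change came to -0.05 (95% interval -0.17 to 0.08; limma adjusted p = 0.9997). In the same samples 12 of 25 myelin probe sets were lower at an adjusted p under 0.05 (limma), against 0.0511% of all probe sets. The 25 covered 9 measured genes of 10 listed, and the 12 came from 6 of the 9. The mean of those 9 genes ran from 6.50 to 6.79 in wild-type and from 5.72 to 5.93 in Nkx2.2-/- mice. Nkx6-2 was dim, its wild-type mean lying above 32.6% of probe sets. RMA compresses differences between dim values towards 0, and whether it did so for Nkx6-2 was not tested.

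**Figure D2:**
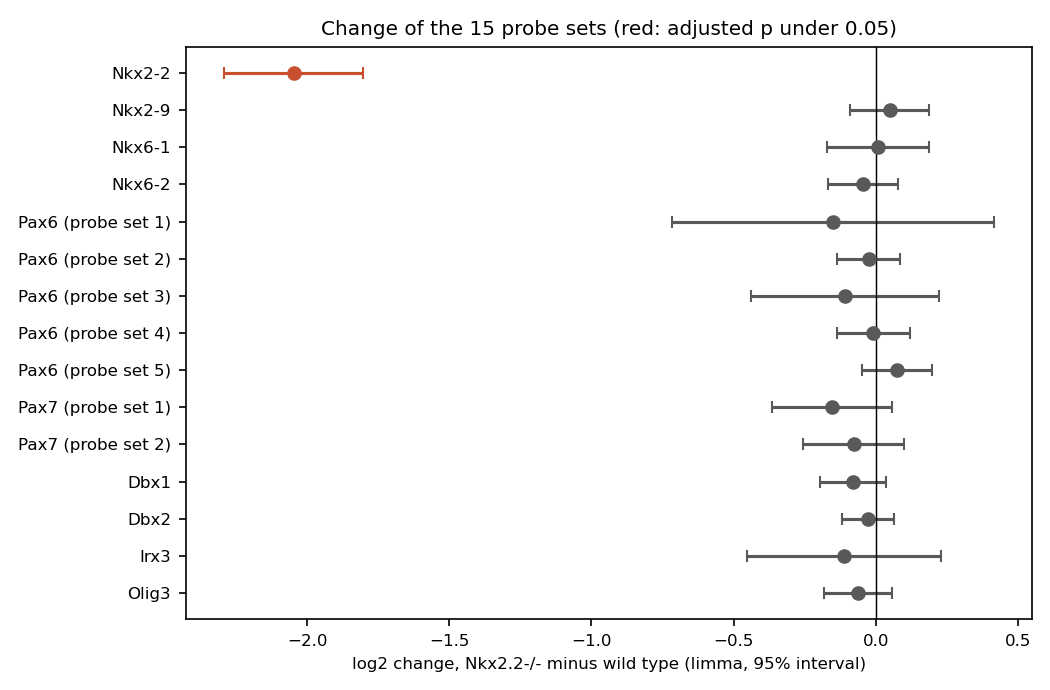
Log2 change with its 95% interval (limma) for each of the 15 probe sets, Nkx2.2-/- minus wild type, on a shared axis; the probe sets of Pax6 and Pax7 are numbered from the brightest. The interval of Nkx2-2 (-2.29 to -1.80) lies apart from 0, the other 14 intervals include 0, and the widest is that of the brightest Pax6 probe set.

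Among the genes that hedgehog turns off, Pax6 varied most between mice of the same genotype and did not pass the test between genotypes. Pax6 encodes the paired-domain factor that borders the Nkx2-2 band, and after birth it also marks cerebellar granule cells and their precursors. Its brightest probe set (1419271_at) read 6.21, 6.13, 5.81, 7.30 and 6.68 in wild-type mice 14, 15, 16, 18 and 21. In Nkx2.2-/- mice 11, 12, 22, 29 and 43 it lay at 6.75, 6.10, 6.01, 6.04 and 6.46. Wild-type mice 18 and 21 and Nkx2.2-/- mouse 11 were the highest, and both groups spanned much of the same range. The log2 change came to -0.15 (95% interval -0.72 to 0.41; limma adjusted p = 0.9997), so a fall of up to 1.64-fold or a rise of up to 1.33-fold is within it. Leaving out 1 mouse at a time gave changes from -0.31 without wild-type mouse 16 to 0.07 without wild-type mouse 18. The SD within genotypes, 0.468, was larger than that of 99.4% of probe sets.

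The other 4 Pax6 probe sets were dimmer. Probe set 1452526_a_at shared the high arrays, at 5.35 in wild-type mouse 18, 4.94 in wild-type mouse 21 and 5.12 in Nkx2.2-/- mouse 11 against 4.54 to 4.75 in the others, and had a log2 change of -0.11 (95% interval -0.44 to 0.22). The remaining 3, 1456342_at, 1437816_at and 1425960_s_at, had wild-type means above 15.5% to 40.2% of probe sets and showed no such pattern, with changes of -0.03, -0.01 and 0.08. None of the 5 passed (limma adjusted p = 0.9997 each), so no rise of Pax6 signal in Nkx2.2-/- mice was detected in this dissection.

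Pax7, which marks dorsal progenitors and also midbrain cells and muscle stem cells, was read by 2 probe sets. The brighter (1444596_at) read 5.35, 5.21, 5.17, 5.31 and 5.08 in wild-type mice 14, 15, 16, 18 and 21. In Nkx2.2-/- mice 11, 12, 22, 29 and 43 it lay at 5.40, 5.11, 5.04, 4.82 and 4.98. Of the 5 Nkx2.2-/- mice 4 were below the wild-type mean, while mouse 11 was the highest of all. The log2 change came to -0.15 (95% interval -0.37 to 0.06; limma adjusted p = 0.9997). Leaving out 1 mouse at a time moved it from -0.24 without Nkx2.2-/- mouse 11 to -0.09 without Nkx2.2-/- mouse 29. The unadjusted limma p was 0.00868 without mouse 11 and 0.327 without mouse 29, so its size depends on mouse 11. Both changes were short of the threshold (limma adjusted p = 1 each). The second probe set (1452510_at) had a log2 change of -0.08 (95% interval -0.26 to 0.10), and here too mouse 11 was the highest mouse, at 5.21.

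Dbx1 and Dbx2 mark the progenitors of V0 and V1 interneurons halfway up the neural tube. Dbx1 ran from 5.04 to 5.20 in wild-type and from 4.94 to 5.16 in Nkx2.2-/- mice, a change of -0.08 with a 95% interval of -0.20 to 0.04. Dbx2 was the steadiest of the 15, with an SD within genotypes of 0.0547, and ran from 4.78 to 4.92 in wild-type and from 4.74 to 4.89 in Nkx2.2-/- mice. Its change was -0.03 with a 95% interval of -0.12 to 0.06. Olig3, known from dorsal progenitors of the hindbrain and spinal cord, ran from 4.75 to 5.003 and from 4.73 to 4.89, a change of -0.06 with a 95% interval of -0.18 to 0.06. All of these groups overlapped and none passed (limma adjusted p = 0.9997 each). Their wild-type means lay above 51.3%, 40.7% and 40.1% of probe sets.

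Irx3, an Iroquois factor that represses the motor neuron programme and borders the Olig2 band, was the brightest member against the array as a whole, its wild-type mean lying above 86.7% of probe sets. Its values were 7.12, 7.20, 6.93, 7.37 and 7.29 in wild-type mice 14, 15, 16, 18 and 21. In Nkx2.2-/- mice 11, 12, 22, 29 and 43 it lay at 7.61, 7.12, 7.11, 6.85 and 6.66. The Nkx2.2-/- mice held both the highest and the lowest value. The log2 change came to -0.11 (95% interval -0.45 to 0.23; limma adjusted p = 0.9997), and leaving out mouse 11 made it -0.25 and leaving out mouse 43 made it -0.01.

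By sign, 11 of the 14 probe sets of the partners were lower in Nkx2.2-/- mice and 3 were higher, with a median change of -0.05, against a median of 0.001 and 49.2% lower over all probe sets. Probe sets of 1 gene share their transcript, so these are not 14 separate observations. The intervals of 10 of the 14 lay within -0.3 to 0.3. Outside it reached the brightest and the 1452526_a_at probe set of Pax6, the brighter one of Pax7, and Irx3.

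The mice in which Pax6 and Irx3 were high were also high in the mean of cerebellar granule cell markers. The cerebellum adjoins the dissected pons, and whether any of it was in these samples was not tested. The mean of 9 measured granule cell markers, of 10 listed, was 6.84 in wild-type mouse 18, 6.68 in Nkx2.2-/- mouse 11 and 6.51 in wild-type mouse 21. It ran from 5.92 to 6.09 in the other 7 mice. Of the 9 genes, 6 lay above the median of probe sets, and Gabra6 and Cbln3 were dim, above 17.5% and 27.7%. Neurod1 spread widest, with an SD of 0.906 in wild-type and 0.998 in Nkx2.2-/- mice, against 0.117 and 0.041 for Gabra6. None of the list's 17 probe sets passed between genotypes (limma), and its mean ran from 6.01 to 6.84 in wild-type and from 5.92 to 6.68 in Nkx2.2-/- mice. For each gene the deviations of the mice from their genotype's mean were compared with those of 5 measures: the granule, progenitor (Pax6 left out) and dividing cell markers, the spinal cord Hox genes and the Gapdh difference. This gave 50 relations over the brightest probe sets of the 10 genes. Each was tested by an exact permutation test, two-sided, over all 14400 rearrangements within genotypes, with Benjamini-Hochberg adjustment over the 50.

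For Pax6 and granule cell markers Pearson's r was 0.919 (exact p = 0.00194, adjusted 0.0958) and Spearman's rho 0.867 (exact p = 0.00757, adjusted 0.189), over 10 mice. Without wild-type mouse 18 and Nkx2.2-/- mouse 11, the mice farthest from the median of the markers, r was 0.786. For Irx3 r was 0.747 (exact p = 0.00757, adjusted 0.0958) and rho 0.746 (exact p = 0.0157, adjusted 0.196), and r was 0.367 without the same 2 mice, so that relation rests on them. Irx3 and radial glia and progenitor markers had an r of 0.727 (exact p = 0.00951, adjusted 0.0958), a rho of 0.794 (exact p = 0.0126, adjusted 0.196) and an r of 0.886 without wild-type mice 18 and 14. Pax6 and dividing cell markers had an r of 0.857 (exact p = 0.00438, adjusted 0.0958) and a rho of 0.867 (exact p = 0.00194, adjusted 0.0972), with an r of 0.492 without wild-type mouse 18 and Nkx2.2-/- mouse 11. None of the 50 relations passed after adjustment. The lowest adjusted p was 0.0958.

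**Figure D3:**
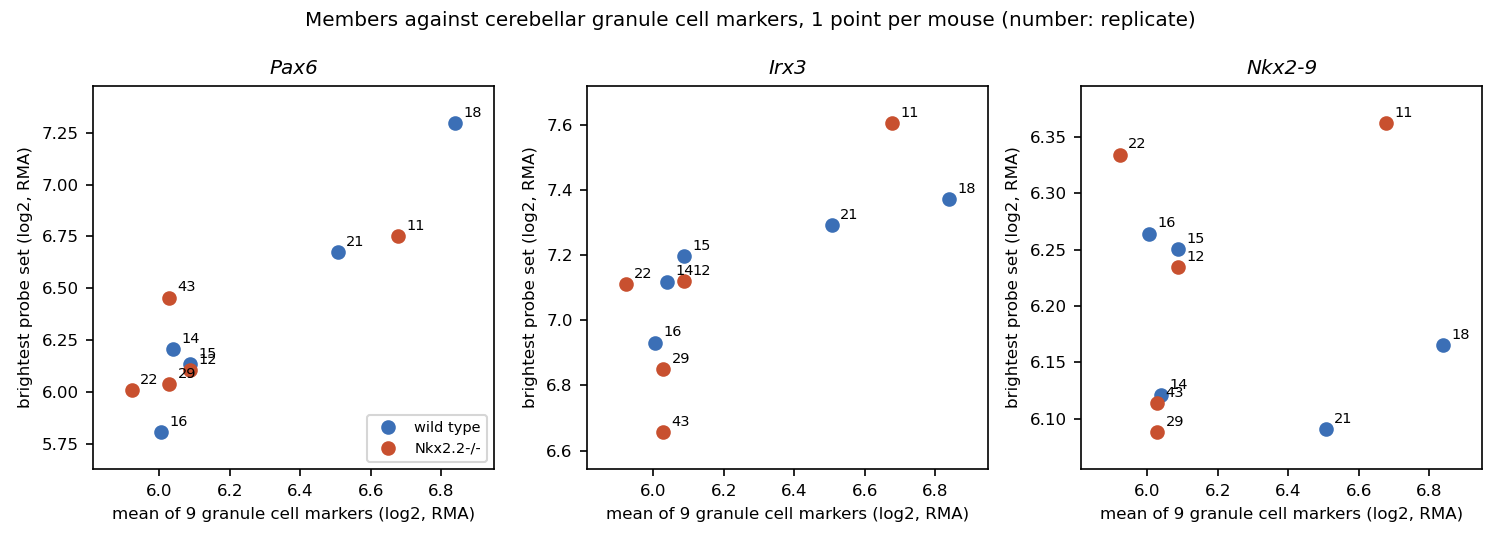
Brightest probe set of Pax6, Irx3 and Nkx2-9 (vertical, log2) against the mean of 9 cerebellar granule cell markers (horizontal, log2), 1 point per mouse, blue for wild type and red for Nkx2.2-/-, with the number of the mouse beside it. Wild-type mice 18 and 21 and Nkx2.2-/- mouse 11 lie to the right in each panel, and are the 3 highest mice for Pax6 and Irx3 but not for Nkx2-9; the vertical axes differ between panels.

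With the granule cell markers as a covariate the change of Pax6 was 0.04 and that of Irx3 -0.02, and that of Nkx2-2 was -2.04 (limma adjusted p = 8.62e-05). Dividing cell markers were lower by sign in Nkx2.2-/- mice for 9 of 9 measured genes, of 10 listed. Of their 14 probe sets 0 passed, and 7 had an unadjusted limma p under 0.05, against 3.43% of all probe sets. The mean of these markers ran from 6.08 to 6.73 in wild-type and from 5.66 to 6.20 in Nkx2.2-/- mice. With them as a covariate the change of the brightest Pax6 probe set was 0.55 (limma unadjusted p = 0.0201, adjusted p = 0.9999). That of Irx3 was 0.23, and both were of the opposite sign to the values without the covariate. The Pax6 probe set 1452526_a_at turned to 0.32 (limma unadjusted p = 0.00859, adjusted p = 0.9999). The Pax6 probe sets 1456342_at, 1437816_at and 1425960_s_at stood at 0.04, -0.06 and 0.11. Neither covariate brought a partner of Nkx2-2 past the threshold.

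Of the markers of other sources, muscle and muscle stem cell genes, where Pax7 is also known, had a mean from 4.78 to 4.86 in wild-type and from 4.85 to 4.95 in Nkx2.2-/- mice, higher by sign in 6 of 6 genes, with 0 of 8 probe sets passing (limma). Of these 6 genes, 2 had a mean above the median of all probe sets. Acta1, the brightest, lay above 73.6% of probe sets, and Myf5, which defines muscle precursors and was the dimmest, above 0.293%. Midbrain and forebrain genes ran from 5.50 to 5.79 and from 5.54 to 5.70, with 0 of 12 probe sets passing for 9 genes of 10 listed. Spinal cord Hox genes ran from 5.04 to 5.22 in wild-type and from 5.16 to 5.69 in Nkx2.2-/- mice. They were higher by sign in 9 of 9 genes. Of their 13 probe sets 0 passed, and 4 had an unadjusted limma p under 0.05, against 3.43% of all probe sets. The brighter Pax7 probe set had an r of -0.761 with the mean of the Hox genes (exact p = 0.0251, adjusted 0.205). The rho was -0.733 (exact p = 0.0337, adjusted 0.337), and r was -0.792 without Nkx2.2-/- mice 22 and 29. With the Hox genes as a covariate the change of this Pax7 probe set was 0.05. Neuron markers, which check the labelled tissue, were bright in every mouse, with a mean of 9.34 to 9.79 over 5 genes.

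No other gene of neural tube patterning that was listed passed the test. In 3 lists, of ventral signals and factors, of dorsal and intermediate progenitor factors and of postmitotic neuron factors, 78 of 88 genes were measured by 132 probe sets, and 0 passed in either direction (limma, over all probe sets). An unadjusted limma p under 0.05 was found in 2 of the 132, or 1.52%, against 3.43% over all probe sets. These were Gsx1, a dorsal interneuron progenitor factor, with a change of 0.14, and a dimmer probe set of Sox21 with a change of 0.40, the latter named after its value was seen. The median changes of the lists were 0.00045, -0.0020 and -0.0075.

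Of the genes above and around the Nkx2-2 band, the values that follow are those of each gene's brightest probe set. Shh, the signal itself, had a log2 change of 0.11 (95% interval -0.13 to 0.34) and Foxa2, a factor of the floor plate, of 0.06 (-0.06 to 0.18). Gli1 and Ptch1, both direct targets of hedgehog signalling, had log2 changes of -0.10 (-0.32 to 0.12) and 0.03 (-0.27 to 0.32), and Gli3, its repressor arm, of 0.07 (-0.04 to 0.19). Olig2, which in the embryo marks the motor neuron band next to that of Nkx2-2, and Olig1 had log2 changes of 0.13 (-0.01 to 0.28) and 0.13 (-0.01 to 0.27). Their means lay above 89.9% and 97.7% of probe sets. In tissue taken after birth these values are not a reading of that band alone. None of the genes from Shh to Olig1 passed (limma adjusted p = 0.9997 each).

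Dorsal factors did not pass either. Pax3, which is expressed with Pax7, had a log2 change of 0.01 (95% interval -0.18 to 0.20), Msx1 of the roof of the tube of -0.09 (-0.35 to 0.17) and Atoh1, of the rhombic lip and granule cell precursors, of -0.04 (-0.35 to 0.26). Among factors of the neurons that these bands produce, Evx1 of V0 interneurons had a log2 change of 0.005 (-0.09 to 0.10), En1 of V1 interneurons of -0.27 (-0.75 to 0.22), Gata3 of V2b interneurons and serotonergic neurons of -0.18 (-0.39 to 0.04), Mnx1 of motor neurons of 0.08 (-0.02 to 0.18) and Sim1 of V3 interneurons of 0.09 (-0.05 to 0.24). None passed (limma adjusted p = 0.9997 each). The means of Evx1, En1, Gata3, Mnx1 and Sim1 lay above 60.3%, 50.1%, 63.8%, 10.5% and 48.8% of probe sets. Mnx1 was thus near the dim end, where a narrow interval does not show that its transcript was detected.

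**Figure D4:**
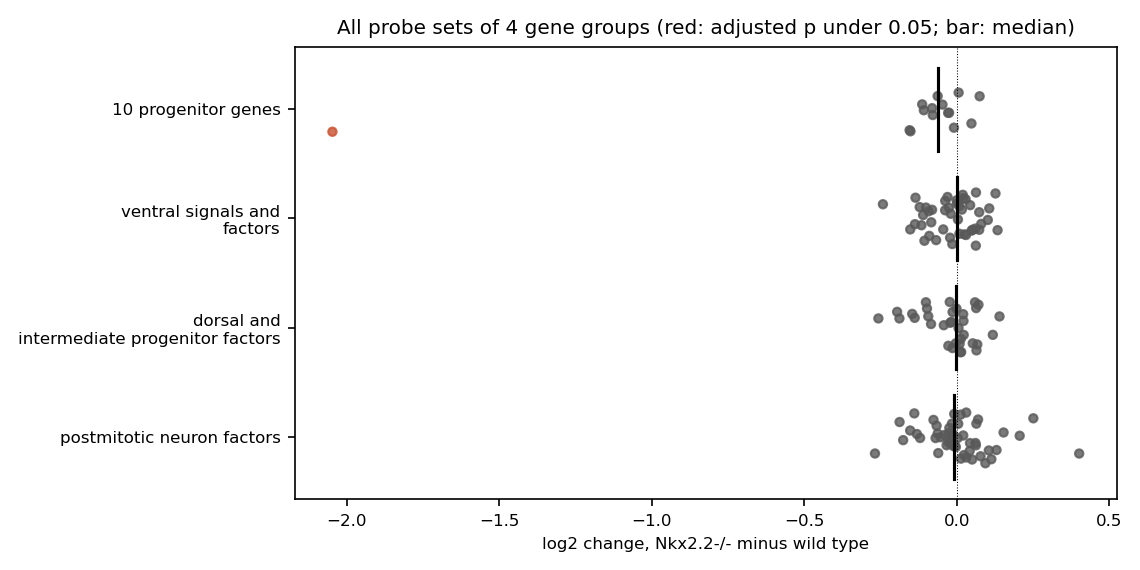
Log2 change, Nkx2.2-/- minus wild type, of every probe set of the 10 progenitor genes and of the 3 lists of other patterning genes, 1 point per probe set, spread vertically at random within a row, with the row's median as a bar. The Nkx2-2 point at -2.05 stands alone in red, and the points of the lists fall between -0.27 and 0.40.

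The SD of Nkx2-2 was 0.186 in wild-type and 0.207 in Nkx2.2-/- mice, and its SD within genotypes, 0.197, was larger than that of 86.1% of probe sets. Over 10 mice, the genes whose deviations from the genotype's mean were most like those of Nkx2-2 were Mrpl35, Elp6, Crlf3, Ak4 and Masp1, with Pearson's r from 0.921 to 0.946 among 34945 probe sets of single genes. Their own changes with genotype ran from -0.04 to 0.08, and none passed (limma adjusted p = 0.9997 each). Those most like the brightest Pax6 probe set were Mcm7, a helicase subunit of DNA replication, Pde1c, Insm1, a factor of neuronal progenitors, Zbtb18 and Gli2, a transcription factor of hedgehog signalling, with r from 0.942 to 0.971. With so many probe sets and 10 arrays, correlations of this size are given as a description of these mice.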

How the data were processed

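Each array carries log2 values of its probe sets, which the authors deposited after RMA, per the submitters' processing notes. The RMA version and the genome build of the probes are not known from these sources. RMA forces all arrays onto a common distribution, which hides any shift common to the transcriptome, and it shrinks differences between dim probe sets. Sample titles gave the groups. The 64 control probe sets among 45101 were dropped. The remainder comprised 34945 annotated with 1 symbol, 932 with several, and 9160 unnamed here. Every one of these 45037 entered a single limma 3.58.1 fit (lmFit, eBayes; R 4.3.3) with genotype alone, and p-values were adjusted over all of them by Benjamini-Hochberg at a threshold of 0.05. The fit was tested on simulated data. Precision is limited by the number of arrays. The p-values weigh the difference between genotypes against the spread between mice of the same genotype. Litter, sex and batch did not enter, so differences in them between the groups are not separated from genotype.

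Levels of different probe sets were not compared, except as the share of probe sets with a lower mean, a guide to brightness. A list's mean takes the brightest probe set of each gene. The 10 genes, all lists, the rule for named genes (20 set patterning genes, some of them not reported here, any list member past the threshold and the 5 genes most like Nkx2-2 and Pax6) and the alternatives were chosen with earlier results of these data known. Alternatives were other normalizations, a filter on dim probe sets, 1 probe set per gene, other variance priors, array weights, marker covariates, a threshold of 0.1, and leaving out arrays. Omitting the 3 arrays highest in granule cell markers was a later choice, made after seeing the values. Plots were drawn with matplotlib 3.10.9 and pandas 2.3.3 in Python 3.11.15.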

Additional observations from a re-analysis of the deposited data

Results flagged for a closer look

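In 54 groups of 5 mice, made of the 15 member probe sets, the 11 lists and the Gapdh difference in each genotype, 1 mouse stood apart from the other 4 in 10 by Dixon's criterion at 95%; chance gives about 1 in 20 groups, and lists that share mice are not independent. Of these, 3 were member probe sets. Nkx2-2 was 6.88 in wild-type mouse 14 against 6.42 to 6.51 in the other 4. Nkx6-1 was 5.09 in Nkx2.2-/- mouse 43 against 5.32 to 5.41. The 1452526_a_at probe set of Pax6 was 5.12 in Nkx2.2-/- mouse 11 against 4.59 to 4.72. These mice also stood apart elsewhere: their Gapdh differences were 3.78 for mouse 43 and 2.13 for mouse 14, and in Nkx2.2-/- mouse 11 the granule cell mean was 6.68 against 5.92 to 6.09, the progenitor mean with Pax6 in it 8.14 against 7.90 to 7.95 and the dividing cell mean 6.20 against 5.66 to 5.78. In wild-type mouse 18 the dividing cell mean was 6.73 against 6.08 to 6.14, and the myelin mean 6.50 against 6.72 to 6.79.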

How the results depend on the processing

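Under 24 alternatives the change of Nkx2-2 stayed between -2.16 and -1.92 and passed each time, with a highest limma adjusted p of 0.00555. The filter, 1 probe set per gene, the variance priors and the threshold of 0.1 cannot move the estimate, which stayed at -2.05. The looser threshold also could not make it fail. Leaving out 1 array at a time gave -2.10 to -1.97. Among the 14 partner probe sets and the 132 of the other patterning genes, 0 passed under any alternative that held them, also without the 3 arrays of highest granule cell markers. The sign of 9 of the 14 partner probe sets turned under at least 1 alternative. The count over the whole array moved from 23 to 11 with 1 probe set per gene, where 18193 were tested, to 11 with spinal cord Hox genes as a covariate and to 15 with dividing cell markers as a covariate; for the covariates the cause was not tested. Dim values limit what could be detected: a change in Nkx6-2, Dbx2, Olig3 or the dimmer Pax6 probe sets may be compressed. No paired analysis was possible because the labels name no litter and the 2 groups share no replicate number. Likeness between mice of 1 litter could not be taken into account.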
